A study of Mus musculus with 912 samples.

Results

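The genes described here are 10 genes for neuropeptide precursors or for proteins of the granules that carry them: Vip, Cck, Npy, Sst, Penk, Pdyn, Tac1, Crh, Adcyap1 and Scg2. They were chosen by name, with earlier results of these data known. All 10 were found among the 42772 genes of the count tables and the 40198 genes of the log2(TPM+1) tables. The nuclei were sorted from the hippocampus of wild-type C57BL6 female mice aged 7.75 to 9 weeks. Of 912 nuclei, 360 came from home cage (HC) mice or from mice killed 1 h after 15 min in an unfamiliar environment (NE), and each carries a cell type predicted by the submitters: dentate gyrus (DG), CA1, CA3, subiculum (Sub), VIP interneurons, Ivy interneurons, Pvalb interneurons or thalamus (Th). HC nuclei were FOS-negative, and 1h nuclei were sorted as FOS+ or FOS-. The other 552 were PROX1+ CTIP2+ DG nuclei positive for ARC protein. They were FOS- nuclei taken 4 h or 5 h after a single exposure, or FOS+ and FOS- nuclei taken after a second 15 min exposure that followed the first by 4 h, with sacrifice 1 h later. The second environment was the same (A>A) or a different one (A>C).

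A neuropeptide gene encodes a long precursor that convertases cut inside dense-core granules, and the peptides act on G protein-coupled receptors of nearby cells. In the hippocampus, peptides such as somatostatin, cholecystokinin and vasoactive intestinal polypeptide are classic labels of GABAergic interneuron classes, while dynorphin is a peptide of granule cells and their mossy fibers. Several of these genes are textbook targets of activity-dependent transcription through the cAMP response element (CRE), a DNA motif bound by CREB.

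After the thresholds on reads, genes and Arc, 783 nuclei of 29 mice remained. Total counts per nucleus ranged from 156591 to 2594899 in the 303 HC and 1h nuclei and from 142275 to 5885216 in the 480 later DG nuclei. The FOS sort was checked with Arc, Inhba and Fos. Arc was higher in DG FOS+ than in DG FOS- nuclei at 1h by 10.57 ± 0.93 (log2 fold change ± SE, edgeR adjusted p = 1.04e-05), whereas Fos itself did not pass (11.14 ± 5.41, edgeR adjusted p = 1.0). With the mouse as a replicate block, Arc was at an edgeR adjusted p of 0.14, and the genes called fell from 11 to 0 in this comparison and from 10 to 0 between the A>A sorts. The nuclei fell into sets of libraries with a shared name prefix, 7 of them for HC and 1h nuclei. The DG nuclei of HC mice 6 and 7 formed a set of their own, the 1h DG nuclei came from 1 mouse and 1 set, and later DG nuclei were in other sets, so for DG the library set and the exposure cannot be told apart. All comparisons with HC DG nuclei share these HC sums. HC mice 6 and 7 were 7.75 and 8.57 weeks old and the 1h DG mouse was 8.7 weeks old, so age differed too.

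The promoter sequences are shown because the 2 genes called in the comparisons below, Scg2 and Npy, differ in this motif. In the RefSeq windows from 250 bases before to 50 bases after each start (GRCm38.p6), 8 of the 10 genes were matched, and Penk and Crh were not. The full CRE, TGACGTCA, was in 588 of 32851 mouse promoter windows (1.79%) and in the windows of Scg2 and Sst. The shorter core TGACG, searched on both strands and contained in the full motif, was in 6837 windows (20.8%) and in those of 6 of the 8 genes. The AP-1 motif TGANTCA was in 2565 windows (7.81%) and in none of the 8. Windows of 30 bases around the match nearest the start follow, 5′ to 3′ on the strand of the gene, with the motif in capitals and the position of its first base relative to the start.
Scg2, -68, chr1:79440076-79440105, minus strand: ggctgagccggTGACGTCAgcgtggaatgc
Sst, -48, chr16:23890874-23890903, minus strand: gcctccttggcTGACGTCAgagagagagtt
Vip, -79, chr10:5639126-5639155, plus strand: gggatcactactgTGACGtctttcggggag
Adcyap1, -91, chr17:93198913-93198942, plus strand: gggactaggatgcTGACGtcttttactgat
Cck, -47, chr9:121495725-121495754, minus strand: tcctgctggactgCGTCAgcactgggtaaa
Tac1, -43, chr6:7555005-7555034, plus strand: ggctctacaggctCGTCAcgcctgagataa

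The windows of Scg2, Sst and Tac1 lie within the bounds of the gene in the GENCODE model, which starts further upstream than the RefSeq start. Npy, on chromosome 6 from 49822710 to 49829507 on the plus strand, had none of the motifs, and the 150 bases before its start are printed in lower case for comparison, since no motif is there to capitalise.
Npy, chr6:49822560-49822709, plus strand: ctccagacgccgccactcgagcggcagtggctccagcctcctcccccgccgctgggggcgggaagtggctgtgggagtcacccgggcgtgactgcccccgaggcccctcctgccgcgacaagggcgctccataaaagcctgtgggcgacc

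A match is a string of letters and not a measured site, and the absence of a match concerns only this window.

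Across the predicted cell types each peptide gene had its own distribution. Levels are given as the mean log2(TPM+1) over the nuclei of a mouse, then as mean ± SD over mice with at least 2 nuclei of the type, with no test, because the types were assigned from the expression of these same nuclei and Vip was among the genes of the classifier. Cck, the cholecystokinin precursor, was the most broadly expressed. It reached 10.58 ± 0.96 in CA1 (n = 6), 10.09 ± 0.37 in CA3 (n = 3), 9.57 ± 2.43 in Sub (n = 5), 9.53 ± 0.81 in Th (n = 2) and 8.81 ± 0.73 in DG (n = 3). Neighbours in this order differed by less than their spread, and the lowest level was 2.90 ± 1.15 in the Pvalb nuclei (n = 3). Scg2, which encodes secretogranin II of the dense-core granule, was also present in all 8 types. Its means ran from 3.60 ± 2.14 in Sub to 7.59 ± 0.85 in DG and 9.25 ± 1.31 in Th. The DG mice (6.61 to 8.10) lay above all Sub mice (at most 5.39) and below the Th mice (8.32 and 10.17).

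**Figure D1:**
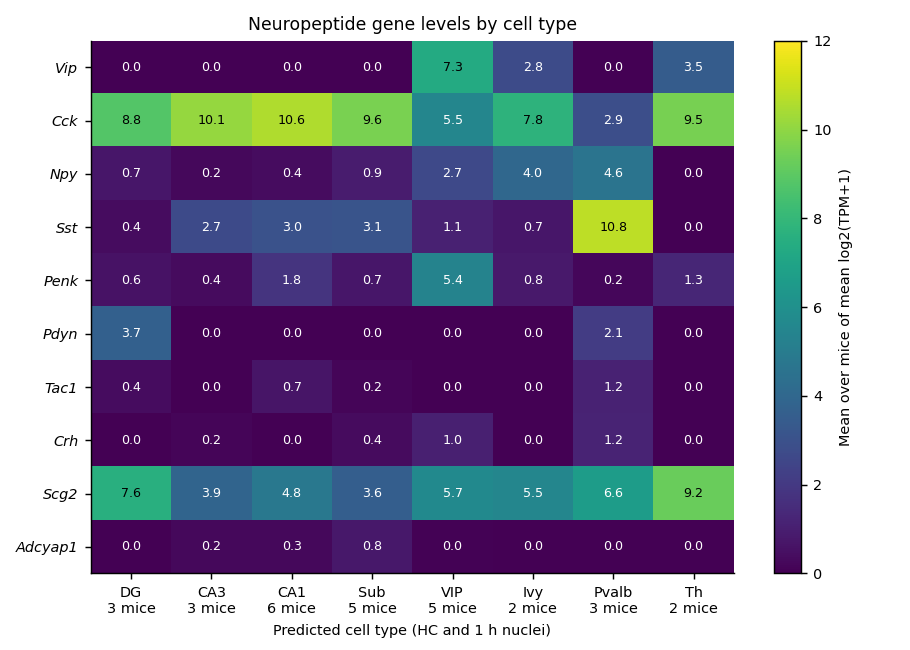
Mean level of the 10 genes (rows) in the 8 predicted cell types of the HC and 1h nuclei (columns, with the number of mice); color and number give the mean over mice of the mean log2(TPM+1). Cck and Scg2 were present in every type, whereas Vip and Penk were highest in VIP nuclei, Pdyn in DG and Sst in Pvalb nuclei.

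The other genes were restricted. Pdyn, the prodynorphin gene, was at 3.70 ± 2.03 in DG (n = 3 mice) and at 2.11 ± 1.98 in Pvalb nuclei (n = 3), with overlapping mice. It had no count in any CA1, Sub, Ivy, Th or VIP nucleus kept. Penk, the proenkephalin gene, was at 5.37 ± 3.04 in VIP nuclei (n = 5) and at 1.79 ± 1.87 in CA1 (n = 6), where single mice spanned 0.00 to 4.96. Adcyap1, which encodes PACAP, was low everywhere, with the highest mean in Sub (0.75 ± 0.59, n = 5). Tac1, the substance P precursor, was highest in Pvalb nuclei (1.16 ± 2.01, n = 3), with an SD above its mean. Crh, the corticotropin-releasing hormone gene, was at 1.22 ± 2.11 in Pvalb nuclei and 1.05 ± 1.12 in VIP nuclei (n = 5), levels that do not differ beyond their spread. Npy, the neuropeptide Y gene, was at 4.63 ± 5.02 in Pvalb (n = 3), 4.00 ± 0.62 in Ivy (n = 2) and 2.66 ± 4.41 in VIP nuclei (n = 5). The VIP mean rested on the highest mouse, at 10.5, beside a median over mice of 0.50.

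The labels were checked against defining markers. The 8 Pvalb nuclei had Pvalb counts in 87.5% of nuclei, but Sst, which marks another interneuron class, was at 10.79 ± 5.02 over their 3 mice. Of the 66 VIP nuclei, 40 had Vip above 8, 20 had Vip between 1.14 and 5.15, and 6 had none. The 6 nuclei without Vip had a mean Adarb2 of 8.03 and a mean Htr3a of 6.68, both markers of the class. Calb2, a further marker, was counted in 2 of the 6, against 29 of the 60 with Vip. Adarb2 is not particular to the class, with means of 7.9 in Th and 5.0 in DG nuclei. Of the 6 nuclei without Vip, the 2 from mouse 2 at 1h had a mean Npy of 10.50.

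Low counts of Vip and Sst moved with the library set. All 40 Vip-high nuclei were in 2 sets, and in these sets Vip was counted in 17 of 18 nuclei of other types, at 1.37 to 5.46. In the other sets it was counted in 0 of 219 such nuclei. These 17 nuclei were 8 Ivy, 7 Th, 1 DG and 1 Sub nucleus, so the Vip means of Ivy (2.76 ± 1.58) and Th (3.50 and 3.51 in 2 mice) come from them. The 20 VIP nuclei with low Vip covered a similar span. Sst showed a similar pattern. Of the 5 nuclei with Sst above 12, 4 were in 1 set, where 35 of 38 CA1, CA3 and Sub nuclei had Sst counts (mean 5.23), against 40 of 94 in the remaining sets (mean 1.84). The part of transfer between libraries in these low values was not tested.

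**Figure D2:**
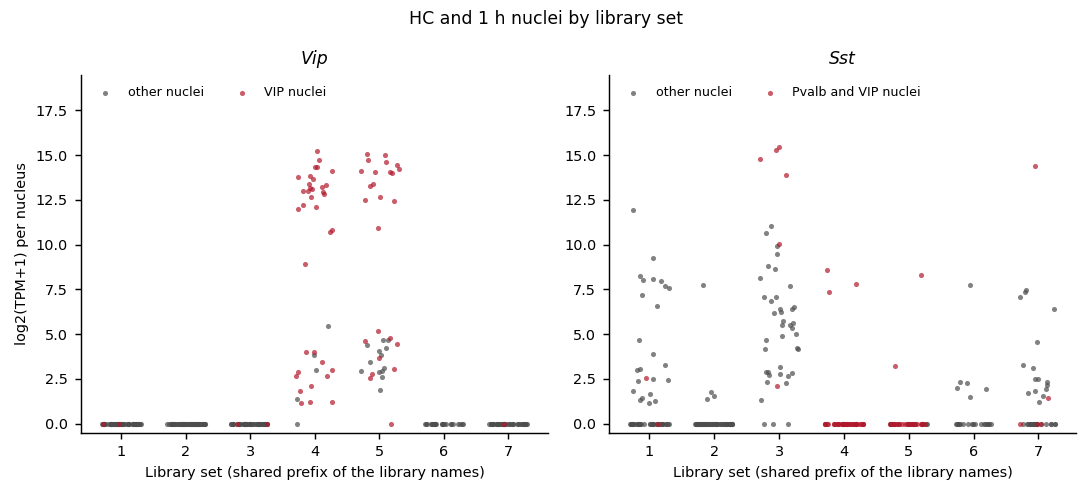
Vip (left) and Sst (right) in every kept HC and 1h nucleus, as log2(TPM+1), against the 7 library sets; red points are VIP nuclei (left) or Pvalb and VIP nuclei (right), grey points all others. Low Vip in other nuclei occurred in sets 4 and 5, which also held the nuclei with high Vip, and Sst was widespread in set 3.

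Within single VIP nuclei the peptides overlapped in part. Penk exceeded 8 in 34 of 66 nuclei, and 28 nuclei were above 8 for both Vip and Penk. Cck exceeded 8 in 32 nuclei, of which 18 also had Vip above 8 and 9 also had Penk above 8. Crh was counted in 18 nuclei, all among the 60 with Vip, and Pdyn and Tac1 in none. Over 39 means per mouse, type and group, which share libraries and types, the gene whose pattern was nearest to that of Vip among 16646 genes was Grpr, the gastrin-releasing peptide receptor gene (Pearson r = 0.90), followed by Sema5b (0.90) and Calb2 (0.89). For Penk it was A830012C17Rik (0.88), then Vstm2l (0.88) and Vip (0.87). The nearest gene was Nxph1 for Npy (0.84), Alox8 for Sst (0.81), Ogn for Pdyn (0.81), Rpp25 for Crh (0.83), Pcsk2 for Cck (0.71) and Igsf6 for Scg2 (0.52).

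Which peptide genes differed in DG nuclei after NE exposure was asked first. By edgeR, Npy and Scg2 were higher in 1h FOS+, 4h and 5h nuclei than in HC nuclei, where the 1h FOS+ arm is 1 sum of 1 mouse whose spread was taken from the other DG groups, and none of the other 8 genes passed the edgeR test in any DG comparison. In sums over nuclei, fewer nuclei with a transcript and less RNA per nucleus cannot be told apart, so shares of nuclei are given too. In HC nuclei, Npy was at 0.11 in mouse 6 (18 nuclei) and 0.00 in mouse 7 (5 nuclei). In the 1h mouse it was at 0.56 in FOS- nuclei and 3.58 in FOS+ nuclei. The 4h mice had 5.17 and 4.78, and the 5h mice 4.90, 2.12, 4.01 and 4.42. Every mouse of the 1h FOS+, 4h and 5h groups lay above both HC mice. The share of all genes for which this held was not counted, here or after a second exposure.

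In sums over the nuclei of those 2 HC mice, Npy had 1 count of 26299423 (0.038 CPM). The 1h FOS+ sum held 341.5 CPM, a ratio of 8982 to HC with a 95% counting interval of 1612 to 354800. For 4h the ratio was 15540 (2790 to 613900), and for 5h it was 10530 (1890 to 416000). The 1h FOS- sum held 2.993 CPM, a ratio of 78.7 (13.9 to 3135). At 5h, mouse 23 had 25 Npy counts (2.512 CPM), near the 1h FOS- sum, against 367.6 to 595.7 CPM in the other 3 mice. These intervals cover counting error only. The ratios also depend on leaving out 1 HC DG nucleus with 889 Npy counts for its Arc level. Smaller fold changes, with such nuclei kept, are given below. Under edgeR's quasi-likelihood test with Benjamini-Hochberg adjustment the adjusted p was 0.0075 for 1h FOS+, 0.00399 for 4h and 0.00829 for 5h.

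Npy was high in a minority of DG nuclei. It exceeded 8 in 0 of 25 HC and 0 of 27 1h FOS- nuclei, 7 of 26 1h FOS+ nuclei, 23 of 68 4h nuclei and 16 of 59 5h nuclei. The highest 1h FOS- nucleus was at 8.00, so its place depends on the last digit of that limit. At 4h, 61 of 68 nuclei had at least 1 Npy count, of which 38 were at 8 or below. These ranged from 0.79 to 7.95, most at or below 3.5. The part of transfer between libraries in such low values, and in the shares below, was not tested. With each nucleus thinned to 100000 counts, the expected share with Npy, as the mean over mice, was 0.28% in HC, 5.26% in 1h FOS-, 33.1% in 1h FOS+, 42.3% in 4h and 37.3% in 5h nuclei. As a check for interneurons, the 23 Npy-high nuclei at 4h had a mean Gad2 of 0.63 and Slc32a1 in 1 nucleus, against 0.62 and 0 nuclei in the other 45. Their mean Prox1, the DG marker, was 5.68 against 5.48. The 7 Npy-high nuclei at 1h had no Slc32a1 count and a mean Gad1 of 3.00, against 7.08 in the other 19.

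**Figure D3:**
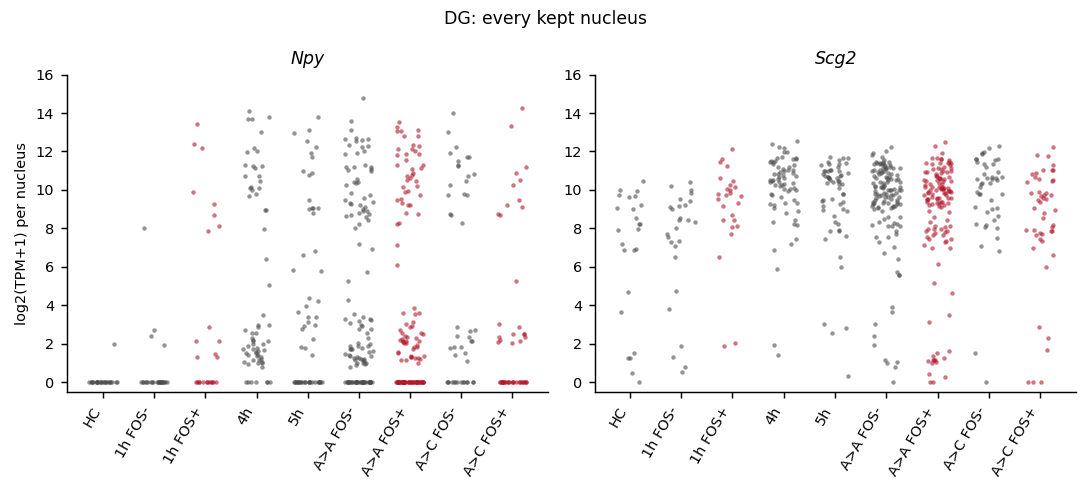
Npy (left) and Scg2 (right) in every kept DG nucleus as log2(TPM+1), by group; red points are FOS+ sorted. Npy exceeded 8 in no HC and no 1h FOS- nucleus and in 7 of 26 1h FOS+ nuclei, whereas Scg2 was counted in 24 of 25 HC nuclei.

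Scg2 started from a high level. HC mice had 6.61 and 8.06, and the 1h mouse 7.20 in FOS- and 9.04 in FOS+ nuclei. The 4h mice had 10.23 and 9.79. The 5h mice had 8.57, 7.90, 10.11 and 9.67, of which 7.90 lies within the HC range. By edgeR on the sums, the log2 fold change to HC was 1.81 ± 0.35 at 1h FOS+ (SE, adjusted p = 0.023), 2.67 ± 0.32 at 4h (adjusted p = 0.000225) and 2.17 ± 0.29 at 5h (adjusted p = 0.00108).

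These were 2 of 10 genes in each comparison, beside 0.27% of all 24405 genes called for 1h FOS+ against HC, 0.246% for 4h and 0.262% for 5h. The genes were chosen with earlier results known and the comparisons share the HC sums, so these shares do not test for enrichment. By DESeq2 2, 2 and 3 of the genes were called, beside 6.61%, 4.23% and 7.32% of all genes. The third at 5h was Tac1, which was lower than in HC (DESeq2 log2 fold change -33.43) and at or near 0 in DG. Limma on mean log2(TPM+1) called neither at 1h FOS+ (2.48% of all genes), both at 4h (1.67% of all genes) and Npy alone at 5h (4.98%). The median log2 fold change of the 10 genes was 0.07 at 1h FOS+, 2.00 at 4h and 0.00 at 5h. Over all genes it was 0.00, 0.23 and 0.00, and the 4h value was 0.00 with DESeq2 size factors. For the 10 genes, the 4h median lay between Crh (1.85 ± 4.31) and Sst (2.15 ± 2.79), each with an SE above its change.

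The calls rested on few HC nuclei. Leaving out HC mouse 7 gave an adjusted p for Npy of 0.176 at 1h FOS+, 0.128 at 4h and 0.159 at 5h, and for Scg2 of 0.312 at 1h FOS+ and 0.0529 at 5h. Leaving out HC mouse 6 gave 0.0683 for Npy at 1h FOS+ and 0.0541 at 5h. One further HC DG nucleus had been left out for its Arc level of 6.52. It had 889 Npy counts (11.57), Pdyn at 9.41 and Inhba at 8.63, with Fos at 0. With such nuclei kept, Npy was higher by 4.30 ± 1.87 at 1h FOS+ (edgeR adjusted p = 0.798), 5.03 ± 1.81 at 4h (0.68) and 4.27 ± 1.67 at 5h (0.42).

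Between sorts of the same 1h mouse, Npy differed by 7.13 ± 2.25 and Scg2 by 1.61 ± 0.43 (FOS+ over FOS-). Neither passed in edgeR (adjusted p = 1.0 and 0.575, 0 of 10 genes beside 0.0451% of all genes), and both passed in DESeq2 (adjusted p = 0.00315 and 0.0414), which called 3.3% of all genes. Each sort here is again 1 sum. For 1h FOS- against HC, none of the 10 genes was called, beside 0.0041% of all genes.

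The remaining DG genes varied between mice within groups. Pdyn was at 2.74 and 6.03 in the HC mice, 1.40 in 1h FOS- and 3.28 in 1h FOS+ nuclei. It was at 3.62 and 4.53 at 4h and at 0.94, 0.00, 4.11 and 2.81 at 5h, so the groups overlapped. The edgeR log2 fold change at 4h was 0.61 ± 1.51 (adjusted p = 1.0). Cck was at 8.46 and 9.65 in HC mice and at 3.32, 5.31, 6.75 and 6.86 at 5h. Its log2 fold change of -1.09 ± 0.42 did not pass (edgeR adjusted p = 0.405). Sst ranged from 0.00 to 3.37 over all DG mice. Vip, Crh, Adcyap1 and Tac1 were at or near 0 in DG, with 1.23 the highest mean, for Tac1 in HC mouse 7.

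**Figure D4:**
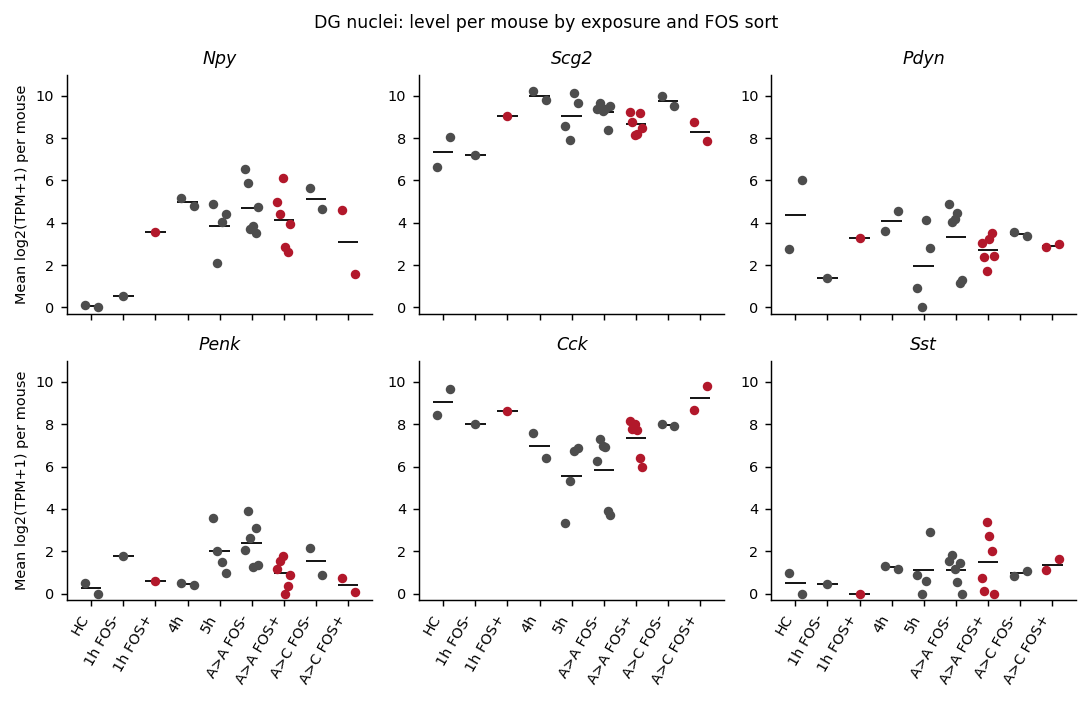
Mean log2(TPM+1) per mouse (points) and mean over mice (lines) of 6 genes in the 9 DG groups; red points are FOS+ sorts. Npy lay at 0.11 or below in both HC mice and between 1.56 and 6.54 in all mice of the 4h, 5h, A>A and A>C groups.

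After a second exposure, Npy stayed above HC levels in every mouse. In A>A, FOS+ nuclei of 6 mice ranged from 2.59 to 6.10 and FOS- nuclei of 6 mice from 3.50 to 6.54. In A>C, the 2 FOS+ mice had 4.59 and 1.56, and the 2 FOS- mice 5.63 and 4.65. No A>C mouse had both sorts, so there the sort and the mouse cannot be told apart. The FOS+ and FOS- sorts overlapped in A>A, and the log2 fold change was -0.25 ± 0.70 (edgeR adjusted p = 0.971). Npy exceeded 8 in 40 of 130 A>A FOS+ and 46 of 129 A>A FOS- nuclei, and in 11 of 48 A>C FOS+ and 19 of 46 A>C FOS- nuclei. In A>C the log2 fold change was -0.65 ± 1.22 (edgeR adjusted p = 1.0).

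Penk, in the 4 A>A mice with both sorts, had a higher mean in FOS- than in FOS+ nuclei of each (2.65 against 1.77, 1.27 against 0.00, 3.10 against 0.37 and 1.36 against 0.88). The edgeR log2 fold change over all A>A sums was -3.06 ± 1.57 (adjusted p = 0.362), so the difference did not pass. Cck differed the other way in each of the same 4 mice (FOS+ minus FOS- of 1.02, 0.83, 2.48 and 2.25). It did not pass either (0.59 ± 0.29, edgeR adjusted p = 0.333). The share of all genes with 1 direction in all 4 mice was not counted. Scg2 was at 8.12 to 9.22 in A>A FOS+ and 8.39 to 9.63 in A>A FOS- mice, overlapping, with -0.27 ± 0.17 (adjusted p = 0.518). In A>C it was at 8.75 and 7.87 in FOS+ mice and 10.00 and 9.50 in FOS- mice, again different mice. There it did not pass either (-0.76 ± 0.30, adjusted p = 0.899). None of the 10 genes was called by edgeR for A>A FOS+ against FOS- (0.041% of all genes), A>C FOS+ against FOS- (0.0%) or A>A against A>C FOS+ (0.0%). Unadjusted, 2, 1 and 0 of the 10 had p below 0.05, beside 15.4%, 4.46% and 4.94% of all genes. DESeq2 called Tac1 in the last comparison, beside 4.25% of all genes, with Tac1 counted in few nuclei (means per mouse at or below 0.39 in A>A FOS+).

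In CA1, Scg2 differed between the sorts in its means per mouse but did not pass in edgeR. FOS+ nuclei of mice 10, 2 and 4 had 7.81, 7.14 and 6.40, and FOS- nuclei of the same mice 2.33, 4.16 and 2.00. HC mice had 5.69, 4.72 and 2.64. The 3 FOS+ values lay above all FOS- and HC values. Of all genes, 7.73% had FOS+ and FOS- means without overlap, and of the 8 measured genes here only Scg2 did. The edgeR log2 fold change was 3.74 ± 0.99 (unadjusted p = 0.00458, adjusted p = 1.0), and DESeq2 gave 3.76 (adjusted p = 0.0325). EdgeR called 0.0% of all genes in this fit and DESeq2 1.1%, and Scg2 was 1 of 5 tested genes at an unadjusted edgeR p under 0.05, beside 4.34% of all genes. CA1 FOS- against HC gave no call (0.0%).

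**Figure D5:**
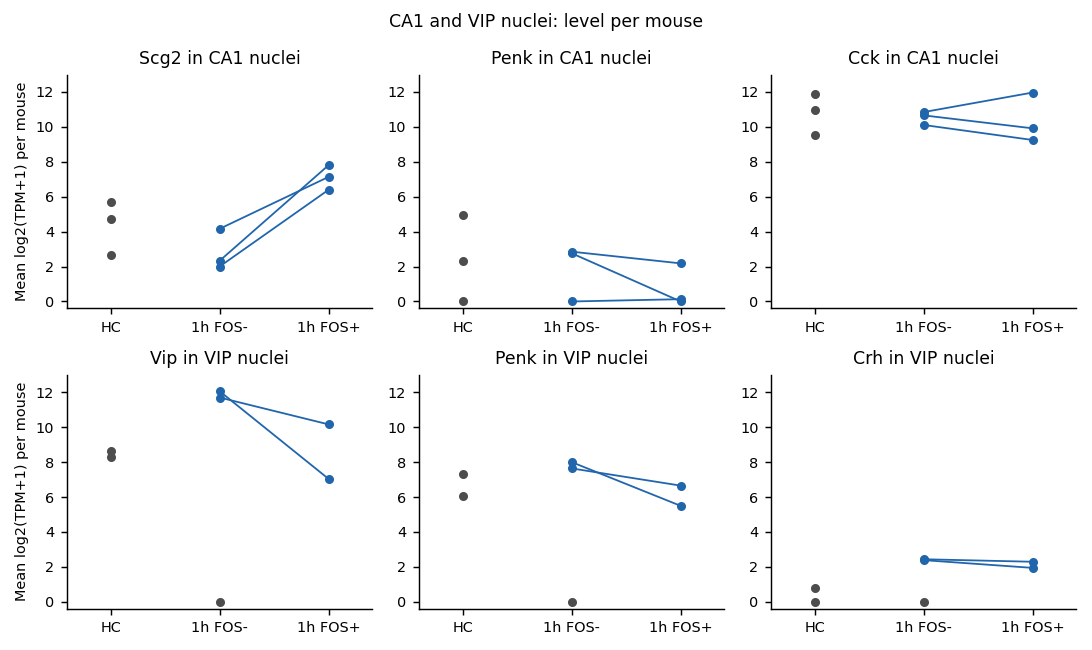
Mean log2(TPM+1) per mouse of 3 genes in CA1 (upper) and 3 in VIP nuclei (lower), for HC, 1h FOS- and 1h FOS+; blue lines join the sorts of 1 mouse. Scg2 in CA1 was higher in FOS+ nuclei in 3 of 3 mice, and Vip and Penk in VIP nuclei were lower in FOS+ nuclei in both mice with both sorts. The share of all genes with these directions was not counted.

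Penk in CA1 was at 4.96, 2.29 and 0.00 in HC, 2.76, 2.85 and 0.00 in FOS- and 0.00, 2.18 and 0.13 in FOS+ nuclei, a spread within groups as large as that between them. Cck in CA1 stayed between 9.25 and 11.97 in all 9 values. In CA3, Cck was lower in FOS+ nuclei of both mice (8.54 against 10.81 and 9.21 against 11.85). In Sub, Adcyap1 was at 2.19, 2.64 and 1.88 in FOS- nuclei and at 0.21, 0.12 and 0.00 in FOS+ nuclei of the same 3 mice, lower in 3 of 3, and HC mice had 0.00 and 0.24. Each FOS- mean came from a single nucleus with counts, at 8.77, 7.92 and 7.50. The edgeR log2 fold change was -9.39 ± 1.96 (adjusted p = 0.695), and DESeq2 called it (-9.62, adjusted p = 5.12e-09) beside 2.13% of all genes. Each of these Sub values came from 2 to 5 nuclei. The share of all genes lower in every mouse was not counted in CA3 or Sub. No peptide gene was called by edgeR in Sub (0.0%) or CA3 (0.0%), with 1 and 0 at an unadjusted p under 0.05, beside 6.71% and 4.0% of all genes.

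In VIP nuclei, Vip itself was at 7.04 and 10.16 in FOS+ nuclei of mice 4 and 5, and at 12.06 and 11.70 in their FOS- nuclei. Vip exceeded 8 in 6 of 13 and 9 of 14 FOS+ nuclei and in 9 of 10 and 4 of 5 FOS- nuclei. HC mice had 8.63 and 8.32, within the FOS+ range. The third FOS- mouse, with 2 nuclei, had 0.00. Without nuclei lacking Vip, an alternative chosen after seeing the data, the log2 fold change was -0.46 ± 0.78 (edgeR adjusted p = 1.0), against 0.15 ± 2.31 with them (adjusted p = 1.0). Penk was at 5.49 and 6.65 in FOS+, 8.00 and 7.64 in FOS- and 6.05 and 7.31 in HC nuclei, with 0.00 in the FOS- mouse lacking Vip. Crh was at 2.29 and 1.94 in FOS+, 2.44 and 2.39 in FOS- and 0.81 and 0.00 in HC nuclei, and again at 0.00 in that mouse. No gene passed in either VIP comparison (0.0% and 0.0% of all 15002 genes by edgeR), and 1 of the 7 tested genes, Sst, was under 0.05 unadjusted in each, beside 5.67% and 4.97% of all genes.

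The genes that process peptides, and those of their receptors, were counted from lists, which were chosen with earlier results of these data known. Of 20 processing and granule genes, all tested in DG, 1 was higher in 1h FOS+ than in HC nuclei, 3 at 4h and 3 at 5h, with no gene lower, beside the 0.27%, 0.246% and 0.262% of all genes. These were Vgf, a granule protein gene, in all 3 comparisons, and Chgb (chromogranin B) and Ptprn, both of granules, at 4h and 5h. Vgf was at 0.21 and 0.00 in HC mice, 6.50 in 1h FOS+, 4.64 and 3.65 at 4h and 0.10, 1.08, 4.83 and 4.74 at 5h, so 2 of the 4 mice at 5h were near the HC level. Chgb was at 6.51 and 4.11 in HC mice, 9.38 and 9.11 at 4h and 7.53 to 9.21 at 5h. Its edgeR log2 fold change at 4h was 3.13 ± 0.56 (adjusted p = 0.013). The list's median log2 fold change was 1.29 at 1h FOS+, 0.66 at 4h and -0.24 at 5h, against 0.00, 0.23 and 0.00 over all genes. None of 18 tested receptor genes and none of 16 tested other precursor genes was called in any DG comparison. The receptor gene with the highest level in DG was Npy1r, which encodes a receptor of neuropeptide Y, at 5.20 ± 0.41 (n = 3 mice), and it also led the receptors in VIP nuclei (4.60 ± 1.79, n = 5). In CA1 it was Sstr4, a somatostatin receptor gene, at 4.16 ± 1.63 (n = 6).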

How the data were processed

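Nuclei were sequenced as single SmartSeq2 libraries with single-end reads. The authors aligned the reads to mm10 and quantified them with RSEM and Bowtie. The expected counts were deposited by the authors as whole numbers, and the log2 values, log2(TPM+1), were also deposited by the authors and used as given. Counts include PCR copies, so intervals cover counting error alone, and genes with few counts were the least precise. Thresholds of 100000 aligned reads and of 4000 genes whose log2(TPM+1) exceeded 1 removed 94 nuclei, and 35 FOS- nuclei of HC and 1h with Arc above 2.5 were left out. Levels were averaged per mouse, defined by exposure and mouse number.

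Counts were summed over at least 2 nuclei per mouse and group and tested in edgeR 4.0.16 (R 4.3.3) by glmQLFit and glmQLFTest after filterByExpr and TMM scaling, with Benjamini-Hochberg adjustment over all genes and a threshold of 0.05. All DG groups shared 1 fit. The study tested single nuclei, which are not replicates. DESeq2 1.42.0 and limma 3.58.1 were alternatives, as were other scalings, filters, thresholds and each mouse left out. The script was tested on simulated data. Where a mouse had both sorts, its FOS+ and FOS- sums pair by the labels, and their deviations correlated between 0.020 and 0.075. Genes named are the 10 members, the called or 3 highest genes of each list, the nearest genes over means, and Arc, Fos and Inhba. The members and lists were chosen with earlier results of these data known. Promoters are from RefSeq (GRCm38.p6) and gene positions from GENCODE vM21. No further columns of per-sample values were left unused.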

Additional observations from a re-analysis of the deposited data

Results flagged for a closer look

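Among 25 groups of 4 to 10 mice, 7 held 1 mouse far from the others. The rule flags about 1 in 20 groups by chance. That rate does not hold where all other mice are at 0, as in most of these flags. The number of flags therefore cannot be weighed against chance. All 7 were A>A mice, but groups of this size came only from later DG nuclei and mostly from the A>A sorts. Scg2 in FOS- nuclei of mouse 26 was 8.39, against 9.26 in the nearest mouse. The other 6 were low genes counted in few nuclei: Adcyap1 in FOS- nuclei of mouse 26 (0.30), Crh in FOS+ (0.47) and FOS- nuclei (0.060) of mouse 25, Vip in FOS+ nuclei of mouse 25 (0.17) and FOS- nuclei of mouse 24 (0.27), and Tac1 in FOS+ nuclei of mouse 24 (0.39).

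Cck at 1h had means per mouse of opposite sign in 2 cell types, and passed in neither (edgeR log2 fold change 1.51 ± 1.83 in VIP, adjusted p = 1.0, and -0.93 ± 0.43 in CA3, adjusted p = 0.798). The FOS+ minus FOS- difference was positive in both VIP mice (mean 2.12) and negative in both CA3 mice (mean -2.46). The difference between the types was not tested, and the share of all genes with such opposite signs was not counted.

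The HC DG nucleus left out for its Arc level had Npy at 11.57, above the highest of the kept HC DG nuclei (2.01).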

How the results depend on the processing

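Of 177 alternative counts, of called genes or of genes with the same highest cell type, 162 stayed within 1.5 times the main count and 15 did not. Most comparisons had 0 genes called in the main fit, and an alternative with 0 was then taken as unchanged. The 162 are therefore no measure of how firm the calls were. With FOS- nuclei kept whatever their Arc level, 1 gene was called for DG 1h FOS+, 4h and 5h against HC in place of 2. DESeq2 size factors left 1 for 1h FOS+ against HC. Limma left 0 there and 1 at 5h. DESeq2 called 2 genes for DG 1h FOS+ against FOS-, 1 for A>A against A>C FOS+, 1 for CA1 and 1 for Sub (FOS+ against FOS-), each against 0 by edgeR. With each mouse left out in turn, the counts ranged from 0 to 2 for 1h FOS+ and 5h and from 1 to 2 for 4h against HC, the lowest values being those without HC mouse 7. The cause of these shifts was not tested, beyond the smaller number of HC nuclei when an HC mouse is left out. Of 321 alternative fold changes of named genes, 277 kept direction and call, 14 lost the call, 6 gained it and 24 changed sign, none of the last being called in either fit. Tac1 at 5h against HC was -11.14, and 1.21 without read and gene thresholds. Pdyn at 4h was 0.61, -0.31 by limma and -0.18 to 2.46 with a mouse left out. Npy between the A>A sorts was -0.25, 0.068 with the replicate block, 0.11 in mice with both sorts and -0.54 to 0.017 with a mouse left out. Between the A>C sorts it was -0.65, and -2.91 to 0.19 with a mouse left out, the highest being without A>C mouse 14. In VIP nuclei the signs for Vip and Npy turned with 1h mouse 2, the FOS- mouse of 2 nuclei. For FOS+ against FOS-, Vip was 0.15, -0.46 without nuclei lacking Vip, -0.45 in sums of at least 5 nuclei, -0.99 with the replicate block and -1.28 to 1.24 with a mouse left out, and Npy was -5.35, 8.92, 9.01, 9.02 and -6.27 to 9.01 in the same order. For FOS- against HC, Vip was -0.11, 0.21 without nuclei lacking Vip, 0.49 in sums of at least 5 nuclei, 0.31 with animals split by date and -0.64 to 0.49 with a mouse left out. Npy there was 5.10, -9.47 without nuclei lacking Vip, -9.28 in sums of at least 5 nuclei and -9.28 to 9.78 with a mouse left out. The replicate block left 0 of the 10 genes called in each comparison it was run on, as without it, while over all genes the calls fell as given for the DG sorts. The cell type with the highest level was the same for 10 genes by the mean, 8 by the median, 7 by the share above 1 and 9 by the share with a count after thinning.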
